A study of Sus scrofa with 2 samples.

Results

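The 3 loci described here are stretches of the pig genome rich in reads that were put forward as candidates for FN1, THBS1 and FBN1, the genes of fibronectin, thrombospondin-1 and fibrillin-1. They are chr15:110934963-111013129 (the FN1 candidate), chr1:138127337-138145259 (the THBS1 candidate) and chr1:128655708-128774690 (the FBN1 candidate), in the coordinates of the deposited files, whose build is not named. The loci were chosen by measured values, namely their number of reads and their excess in fetal fibroblasts, so these values are given as a description with no test. Together they held 62 of the 75535 regions covered by reads, 8 in the FN1 candidate, 1 in the THBS1 candidate and 53 in the FBN1 candidate. The files name no gene, and the gene names are an inference from span, exon-like spacing and order that is examined below.

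The study sequenced poly(A) RNA from 2 in vitro pig cultures, embryonic germ cells (pEGC) and fetal fibroblasts (pFF), 1 library each. Labels shared by both samples name a cross of Danish Landrace sows and Yorkshire boars, with embryos taken between days 17 and 24 of pregnancy. Mini pigs, however, are named in the title of the series. The growth protocol given for both samples describes only the germ cells, so whether these days also hold for the fibroblasts is not stated. Colonies of germ cells grew from hindguts or genital ridge areas on STO cells, a mouse fibroblast line inactivated with mitomycin C, with the growth factors LIF and SCF (each 10 ng/ml) and bFGF (3 ng/ml), and were freed of somatic and feeder cells by collagenase and mesh. The labels give no culture of the fibroblasts of their own and name no treatment. Both files hold 14324517 aligned reads of 34 bases. With 1 library per group there was no spread between replicates and no test. Ratios carry exact 95% Clopper-Pearson intervals, which cover counting error only, since PCR copies of a molecule cannot be told from other molecules without identifiers. Reads of feeder or somatic cells that align to the pig genome could not be separated in pEGC, and their part in the values was not tested. In bulk RNA, fewer cells of a type and less RNA per cell cannot be told apart.

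Fibronectin is a large glycoprotein of the extracellular matrix that binds integrins, collagen and heparin, and its transcript is spliced in several ways around the extra domain and variable segments. Thrombospondin-1 is a matricellular protein, secreted but not a structural part of the matrix, that binds the receptors CD36 and CD47 and can activate latent TGF-beta. Fibrillin-1 is the main subunit of the microfibrils that carry elastic fibres and hold latent TGF-beta, and it consists mostly of repeated EGF-like domains, many encoded by an exon each. All 3 proteins are typical products of cultured fibroblasts.

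Levels were taken as RPM (reads of every 1000000), counted outside a block of chromosome 6, positions 245000 to 260000, which alone took 11.5% of the library in pEGC and 30.6% in pFF. This left 12682180 reads in pEGC and 9942279 in pFF, and a count of 3 reads, the limit that a count of 0 allows, was worth 0.237 and 0.302 RPM. The FN1 candidate had 32756 reads in pEGC, or 2583 RPM, and 172751 reads in pFF, or 17375 RPM. Its level was 6.73-fold higher in pFF (6.65 to 6.81, log2 ratio 2.75). The THBS1 candidate had 38233 reads (3015 RPM) in pEGC and 186423 reads (18751 RPM) in pFF. It was 6.22-fold higher in pFF (6.15 to 6.29, log2 ratio 2.64). Both loci were thus well covered in germ cell culture, where their RPM was 14.9% and 16.1% of that in fibroblasts. The FBN1 candidate had 149 reads (11.7 RPM) in pEGC and 28678 reads (2884 RPM) in pFF. It was 246-fold higher in pFF (209 to 290, log2 ratio 7.94), and its pEGC level was 0.407% of the pFF level. The 3 loci took 1.74%, 1.88% and 0.288% of the pFF reads counted, against 0.258%, 0.301% and 0.00117% in pEGC.

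All 60 regions of the loci that had enough reads for a call were counted as higher in pFF: 8 of 8 in the FN1 candidate, 1 of 1 in the THBS1 candidate and 51 of 51 in the FBN1 candidate. A call required a 4-fold ratio, 50 reads in whichever library was higher, and an interval beyond 2-fold. Over the 32203 regions of the genome with enough reads, 8.82% were higher in pFF and 15.5% were higher in pEGC by the same rule. Since this contrast chose the loci, their count is a description only. The median region had 0.801 times the RPM of pEGC in pFF (quartiles 0.411 to 1.46), and a trimmed mean of M-values shifted the log2 scale by -0.34. Under that scaling 10.7% of regions were higher in pFF and 13.0% higher in pEGC, and the loci were 8.51-, 7.87- and 311-fold higher in pFF. With each combination of position and strand counted once, the ratios fell to 1.89, 1.20 and 54.1. A position can then add at most 1 read per strand however deep it is. How much of the fall came from this limit and how much from PCR copies was not tested. In pFF, distinct positions made up 7.14%, 4.90% and 18.6% of the reads of the FN1, THBS1 and FBN1 candidates, against 25.4%, 25.4% and 84.6% in pEGC. Reads fell on both strands in near equal shares, as in libraries that keep no strand, with 48.3% to 50.5% on the forward strand in pEGC and pFF for the FN1 and THBS1 candidates, and 44.3% (pEGC) and 49.8% (pFF) for the FBN1 candidate.

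Reads of mature transcripts should pile up over exons and leave introns nearly empty, so the candidate names were first set against the read profile. Blocks of coverage were drawn from the pooled depth at 10% of the 95th percentile of each locus. This depth is of raw counts, and pFF gave most reads of each locus. Stretches rich in pFF therefore pass as blocks more easily, and those rich in pEGC alone tend to fall between blocks. The direction of the ratio in blocks is thus partly set by the block rule. The FN1 candidate held 50 blocks over 7732 bases, 9.89% of its width, with a median block width of 131.5 bases and a widest block of 754 bases near its lower end. The THBS1 candidate held 24 blocks over 5365 bases, 29.9% of its width, also with a median of 131.5 bases, and its widest block of 1984 bases again lay near the lower end. A single wide block at 1 end is the usual form of a gene whose last exon carries a long untranslated part. The FBN1 candidate had no such block. It held 75 blocks over 8090 bases, 6.80% of its width, and the widest was 222 bases.

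Repeated blocks of like width marked the FBN1 candidate. Of its 55 blocks with at least 100 reads, 40 were between 110 and 140 bases wide, against 11 of 45 in the FN1 candidate and 8 of 24 in the THBS1 candidate. The median width of these 55 blocks was 126 bases, and exons for single EGF-like domains are known to be of about this size. The other 20 blocks had 4 to 89 reads each, 230 pFF reads and 1 pEGC read in all, and 12 of them lay between 60 and 68 kb from the lower limit, inside the locus and between deeper blocks. In that stretch pFF had 638 reads and pEGC had 3.

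RefSeq's gene table for the assembly Sscrofa11.1 places FN1, THBS1 and FBN1 on the same chromosomes as their candidates, 15, 1 and 1, and FBN1 before THBS1 on chromosome 1, which is also the order of the candidates. None of the positions overlapped, so only lengths and order were compared. Span, exon-like spacing and order were the grounds on which the names had been given, so a match in them is no independent check. The FN1 candidate was 78167 bases wide, 99.0% of the RefSeq gene length of 78988 bases. Its lowest block began 5.17 kb above the lower limit, so this width includes a stretch without blocks at that end. The THBS1 candidate was 17923 bases wide, 103% of 17318 bases. The FBN1 candidate was 118983 bases wide and covered only 46.2% of 257639 bases. The given limits of the first 2 loci thus had about the length of FN1 and THBS1, though the blocks of the FN1 candidate spanned less. The third name matched in block width and order but not in length within the given limits. With 7 regions of nearly only pFF reads that lie below the lower limit, described next, the stretch came to 280827 bases, 109% of the RefSeq length, but whether they belong to the same gene was not tested. No sequence was at hand to settle any of the names.

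**Figure D1:**
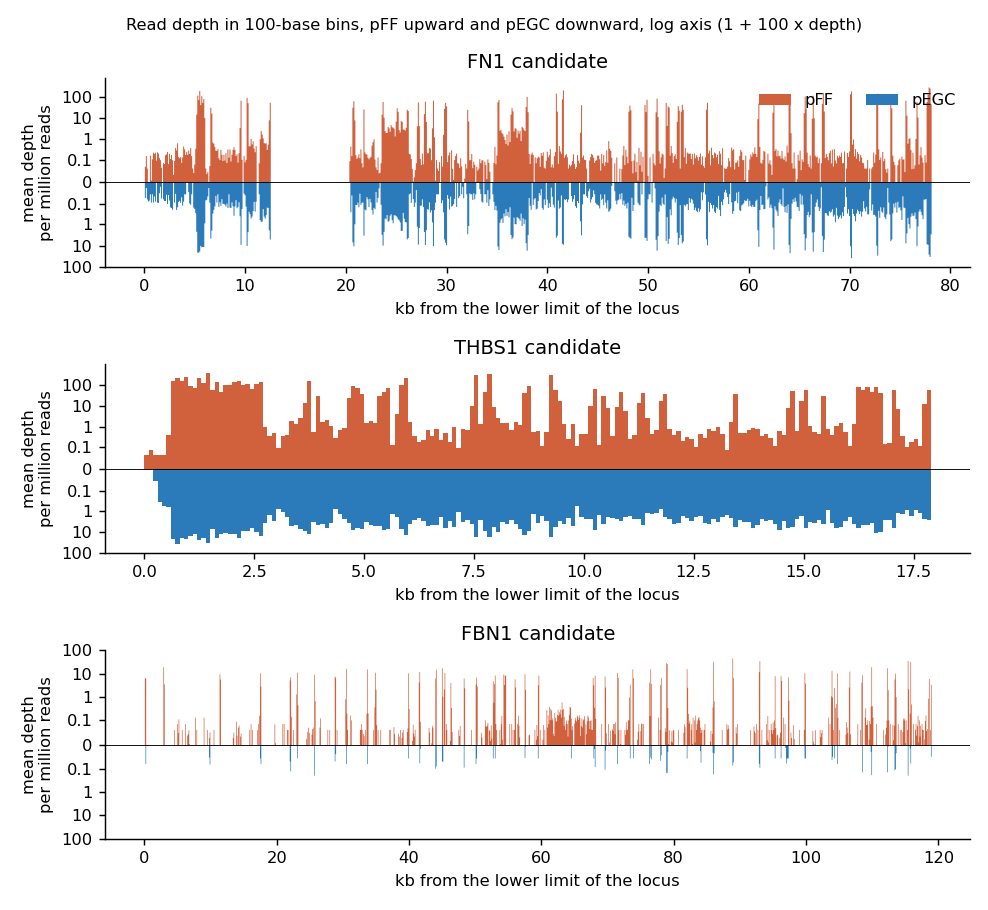
Mean read depth, scaled to 1000000 reads, in bins of 100 bases along each locus, pFF drawn upward and pEGC downward on a log axis of 1 + 100 x depth, with distance in kb from the lower limit of the locus. Most peaks of pFF in the FN1 and THBS1 candidates have a counterpart in pEGC (reads per base of blocks correlated with r = 0.847 and 0.834), pEGC also fills the stretches between peaks of the THBS1 candidate, and pEGC is nearly empty in the FBN1 candidate (149 reads).

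Reads dropped within 1 kb at each limit of the loci. The 1 kb inside the upper limit of the FN1 candidate held 2915 pEGC and 22888 pFF reads, and the 1 kb outside held 3 and 5. The 1 kb inside its lower limit held 19 and 31, and the 1 kb outside held 1 and 5. At the THBS1 candidate the 1 kb inside the lower limit held 3972 and 23605 reads against 0 and 1 outside, and the 1 kb inside the upper limit held 818 and 4082 against 3 and 5 outside. At the FBN1 candidate the 1 kb inside held 2 and 402 reads at the lower and 2 and 500 at the upper limit, against 1 and 3 and against 0 and 0 outside.

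Of the 7 regions below the lower limit of the FBN1 candidate, 6 passed the 4-fold call. The 7 held 9 pEGC and 1598 pFF reads in all, a level 226-fold higher in pFF (119 to 496). The lowest began at position 128493864 of chromosome 1, and that is where the stretch given above starts. The widest gap among these regions and up to the locus was 62.5 kb, and below them no region lay for 335 kb. With these regions included the ratio was 244 (209 to 288). On the other side, 6262 bases past the upper limit, the direction turned. There 20 regions in a row, from 128780953 to 128872604, were lower in pFF, with 12161 pEGC and 145 pFF reads, and their level was 65.7-fold higher in pEGC (55.8 to 78.0). Of these, 18 passed the 4-fold call for pEGC. RefSeq lists CEP152, which encodes a centrosome protein, and DUT, which encodes the dUTP pyrophosphatase, as the neighbours of FBN1 on Sscrofa11.1, but these regions were not matched to any gene. The FN1 and THBS1 candidates stood more alone, with 7 and 8 regions within 300 kb on both sides together. Only 2 regions below and 1 above the FN1 candidate, and 1 below the THBS1 candidate, had enough reads for a call. Of these, only the 1 above the FN1 candidate passed, higher in pEGC.

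**Figure D2:**
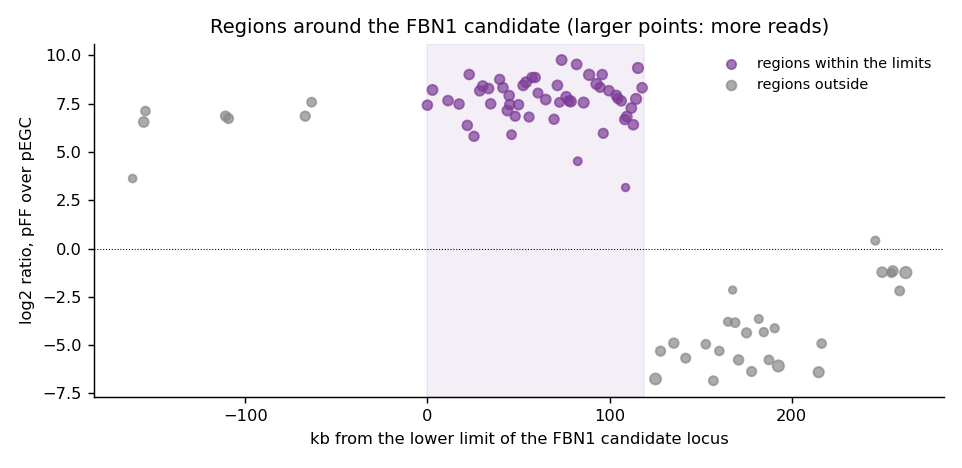
Log2 ratio of pFF over pEGC for each region around the FBN1 candidate, against distance in kb from its lower limit, with larger points for more reads, the shaded band for the locus, and a library without a read set to 3 reads. The 7 regions below the locus lie on the pFF side like those within it, and the 20 regions that begin 6262 bases above it lie on the pEGC side.

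Per kb of blocks, which makes loci of different length comparable, the levels in pFF were 3391 RPM per kb for the THBS1 candidate, 2165 for the FN1 candidate and 348 for the FBN1 candidate. In pEGC the order was the same, with 348, 296 and 1.35 RPM per kb. By this measure, which leaves out reads between blocks, the THBS1 and FN1 candidates were nearer to each other in pEGC than in pFF. Over whole loci they were nearer in pFF, with 18751 and 17375 RPM, than in pEGC, with 3015 and 2583 RPM. Per kb of blocks, the FBN1 candidate in pFF stood at the level that the THBS1 candidate had in pEGC. Within blocks the levels were 7.30-fold (7.21 to 7.4), 9.76-fold (9.63 to 9.89) and 257-fold (218 to 306) higher in pFF for the FN1, THBS1 and FBN1 candidates.

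Between blocks the 3 loci did not behave alike. In the FN1 candidate 3690 pEGC reads and 6299 pFF reads started outside blocks, which is 11.3% (10.9 to 11.6) and 3.65% (3.56 to 3.74) of the reads of the locus. Per kb between blocks, pEGC had 4.13 RPM and pFF had 8.99, and the pFF level was 2.18-fold higher (2.09 to 2.27). In the FBN1 candidate 10 pEGC reads and 670 pFF reads lay between blocks, 6.71% (3.27 to 12) and 2.34% (2.16 to 2.52), and the level there was 85.5-fold higher in pFF (46.2 to 179).

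The THBS1 candidate showed opposite directions in and between its blocks as drawn here. Between blocks it had 14588 pEGC reads and 5567 pFF reads, 38.2% (37.7 to 38.6) and 2.99% (2.91 to 3.06) of the reads of the locus. The level between blocks was 91.6 RPM per kb in pEGC and 44.6 RPM per kb in pFF, so it was 2.05-fold higher in pEGC (1.99 to 2.12), while that in blocks was 9.76-fold higher in pFF. The pEGC excess between blocks was 2.62-fold with the chromosome 6 block in the totals, 1.62-fold with the trimmed mean of M-values and 1.60-fold with a median of ratios. The 23 stretches with a block on each side, without the ends of the locus, held 14508 pEGC and 5419 pFF reads. Counting each position and strand once, they had 5231 distinct positions in pEGC and 1682 in pFF. Scaled to the reads counted, this was a ratio of pFF over pEGC of 0.410 (0.388 to 0.433). Of 21 stretches between blocks with at least 100 bases and 20 reads, 15 were lower in pFF, 11 with an interval wholly below 1, and 5 had an interval wholly above 1. Their median ratio of pFF over pEGC was 0.657 (range 0.219 to 2.60). All of the 11 stretches of at least 400 bases were lower in pFF in value (0.219 to 0.839), 10 of them with an interval below 1, and among the 10 narrower ones 4 were lower in pFF. The pEGC reads between blocks were thus spread over the whole locus and lay mainly in its wider stretches.

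The direction between blocks of the THBS1 candidate depended on where blocks were drawn. The pEGC level there was 3.22-fold higher (3.09 to 3.35) with blocks at 5% of the depth, 1.91-fold higher (1.85 to 1.96) with blocks from pFF alone and 4.85-fold higher (4.63 to 5.09) when the 50 bases next to each block were left out. With blocks at 20% of the depth it turned, to 1.22-fold higher in pFF (1.19 to 1.25), and with the 50 bases next to these blocks also left out it was 2.57-fold higher in pEGC (2.48 to 2.66). With blocks drawn from pEGC depth alone, 66 in number, only 31.6% of the locus lay between them, and the level there was 1.40-fold higher in pFF (1.33 to 1.48). The share of reads between blocks was 6.98% in pEGC and 1.57% in pFF in that case. Unlike the level, the share was above that of pFF in pEGC in 5 of 5 ways to draw blocks for the THBS1 and FN1 candidates and in 4 of 5 for the FBN1 candidate. Reads that started in a block and ran past its end made up 5.21% of the pEGC and 1.61% of the pFF block reads in the THBS1 candidate, and 1.46% and 0.899% in the FN1 candidate.

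To place this, the same measure, with blocks drawn in the same way, was taken in 166 other regions of at least 10 kb with at least 500 reads in each library. Their median share of reads between blocks was 6.47% in pEGC and 4.51% in pFF, and it was higher in pEGC in 139 of them (83.7%). With blocks drawn from pooled depth, a higher share in germ cell culture was therefore common. The pEGC share of the THBS1 candidate, 38.2%, was reached by 1 of these regions, 112375672 to 112391260 on chromosome 1. This region had 40.6% in pEGC and 12.2% in pFF and was higher in pFF both in blocks (12.5-fold) and between them (2.53-fold). The count depended on how blocks were drawn. Among regions with reads in and between blocks, 0 of 133 reached the THBS1 share at 5% of the depth and 2 of 166 at 20%. With blocks from pFF alone 6 of 98 did, and with blocks from pEGC alone, where that share was 6.98%, 57 of 140 did. The ratio in blocks divided by the ratio between blocks had a median of 1.52 in these regions (quartiles 1.09 to 1.95), and it was 20.0 in the THBS1 candidate, a value that 0 of 166 reached. This value too changed with the way blocks were drawn, but at most 1 region reached it in each. With blocks at 5% of the depth it was 28.3, which 0 of 133 regions with reads in and between blocks reached. With blocks from pFF alone it was 18.8, reached by 0 of 98. With blocks at 20% of the depth the value of the THBS1 candidate was 8.23, and 1 of 166 regions reached it. With blocks from pEGC alone it was 4.69, which 1 of 140 regions with reads in and between blocks reached. The median of the other regions was 3.51 with blocks from pFF alone and 0.681 with blocks from pEGC alone. A value below 1 means a higher share between blocks in pFF. With blocks from pooled depth at 10%, the 4 wide regions of the FN1 candidate had 2.93, 3.09, 3.32 and 5.65. Opposite directions, with blocks higher in pFF and the rest higher in pEGC, occurred in 22 of the 166 (13.3%), but in only 1 of the 9 whose blocks were at least 4-fold higher in pFF.

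**Figure D3:**
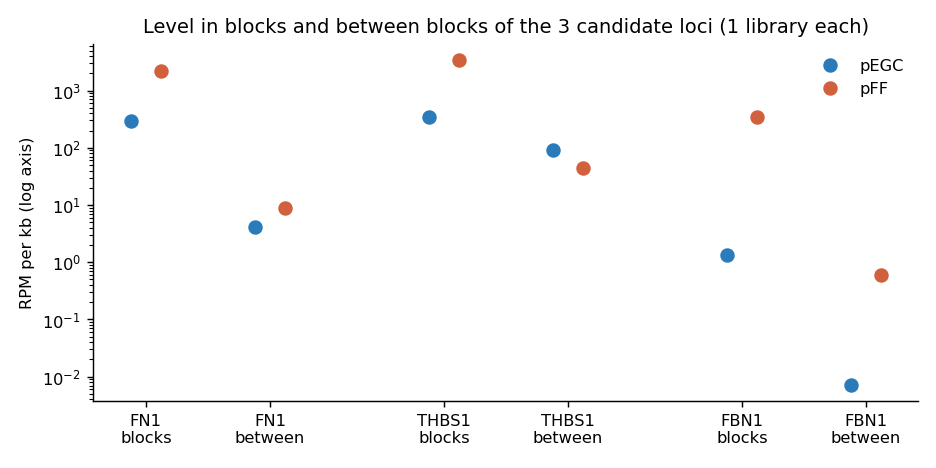
Level in RPM per kb on a log axis in blocks and between blocks of each candidate locus, 1 point per library with no replicates. The pFF point lies above the pEGC point everywhere except between the blocks of the THBS1 candidate, where pEGC had 91.6 and pFF 44.6 RPM per kb, an order that turned with blocks at 20% of the depth or from pEGC depth alone.

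Along the FN1 candidate, the ratio over larger parts varied less in blocks than between them, though single blocks ranged widely, as given below. In 4 stretches of equal length from the lower to the upper limit the blocks were 7.41-, 6.21-, 8.51- and 7.32-fold higher in pFF. Between blocks the same 4 stretches gave ratios of 2.55, 3.55, 2.12 and 0.919, and the last interval was 0.846 to 0.997. In its uppermost part the FN1 candidate thus had 1394 pEGC and 1004 pFF reads between blocks, at levels within 1.09-fold of each other. Of 46 stretches between its blocks with at least 100 bases and 20 reads, 8 were lower in pFF. Of these 8, 4 had an interval wholly below 1 (ratios 0.638 to 0.709), all in the uppermost part. In 33 of the 46 the interval lay wholly above 1. Along the THBS1 candidate the ratio between blocks stayed below 1 throughout, at 0.572, 0.403, 0.631 and 0.432, with 8.37, 12.6, 12.8 and 9.93 in blocks. In the FBN1 candidate the blocks gave 215, 341, 266 and 224.

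A longest stretch without a read of either library measured 7.93 kb in the FN1 candidate, from 12.5 to 20.4 kb above the lower limit, and in all 29.7% of that locus had no read over it. In the FBN1 candidate 82.0% had none, with a longest read-free stretch of 2.60 kb. The THBS1 candidate was covered almost throughout, with 1.38% read-free and no stretch over 75 bases.

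The share of block reads along the joined blocks was alike in both libraries for the FN1 candidate. Its lower, middle and upper parts of equal length held 26.4%, 26.0% and 47.6% in pEGC and 26.2%, 27.7% and 46.0% in pFF. The THBS1 candidate had 52.4%, 32.0% and 15.6% in pEGC and 43.8%, 40.5% and 15.7% in pFF. In the FBN1 candidate the shares were 31.7%, 19.4% and 48.9% of the 139 pEGC reads in blocks and 30.1%, 25% and 44.8% of the 28008 pFF reads.

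Reads per base of the single blocks followed each other in both libraries. Across blocks with at least 100 reads, which share a library and are not replicates, log10 of reads per base (0.5 reads added to each block) correlated with Pearson r = 0.847 and Spearman rho = 0.822 over 45 blocks of the FN1 candidate. For the THBS1 candidate the values were 0.834 and 0.867 over 24 blocks. For the FBN1 candidate they were 0.345 and 0.273 over 55 blocks, where a block held a median of 2 pEGC reads (0 to 11) and a median of 408 pFF reads (133 to 1696). These pEGC reads were spread widely, since 45 of the 55 blocks had at least 1.

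Among the 45 blocks of the FN1 candidate with at least 100 reads, the ratio had a median of 6.45 (quartiles 5.54 to 8.32, range 4.47 to 43.1). None of its 50 blocks was lower in pFF, and the lowest ratio among the 5 smaller ones was 1.57, from 30 pEGC and 37 pFF reads. The block rule, which favours stretches rich in pFF, partly sets this direction. The widest block, 754 bases from 110940134 on, had 3932 pEGC and 20604 pFF reads, a ratio of 6.68. The block with most reads per base in both libraries, 159 bases from 111005009 on, had 1749 and 9463 reads, a ratio of 6.90. The lowest ratio among blocks with at least 100 reads, 4.47, was that of a block of 60 bases from 110960353 on, with 67 and 235 reads.

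In the FN1 candidate 5 blocks departed from the rest of their locus, with at least 100 reads and an interval beyond 1.5-fold of the rest. All 5 were higher in pFF than the rest, the direction that the block rule favours. The farthest was a block of 242 bases, from 110959916 to 110960157, with 49 pEGC and 1655 pFF reads. Its ratio was 43.1 (32.4 to 58.5), 5.95 times the 7.24 of the other blocks. In pEGC this block stood at 6.21% of the library's median block and its flanks of 500 bases outside blocks at 5.10%, so it did not rise above its surroundings. In pFF it stood at 40.4% and the flanks at 3.64%. The next block below reached 11.0% in pEGC and 8.25% in pFF, and the next block above 34.3% and 23.1%. The excess did not rest on a few positions, since the top position held 4.08% of the pEGC and 3.32% of the pFF reads, and 42 and 284 distinct positions gave a ratio of 8.63. So the block stood out from its flanks in fibroblasts and not in germ cell culture, while both blocks beside it were covered to a like share in both libraries.

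The other 4 departing blocks of the FN1 candidate were covered in both libraries. A block of 87 bases from 110975818 on had 268 and 4902 reads, a ratio of 23.3 (20.6 to 26.5), but 1 position held 19.3% of its pFF reads and 91.0% of them were on the forward strand. The block of 168 bases from 110976375 on had 609 and 8434 reads, a ratio of 17.7 (16.3 to 19.2), with 22.0% of the pFF reads at 1 position. A block of 82 bases from 110978249 on had 122 and 1265 reads, a ratio of 13.2 (11.0 to 16.1). The block of 126 bases from 110945073 on had 443 and 4207 reads, a ratio of 12.1 (11.0 to 13.4). Counted once per position, 1 of the 5 blocks still departed.

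**Figure D4:**
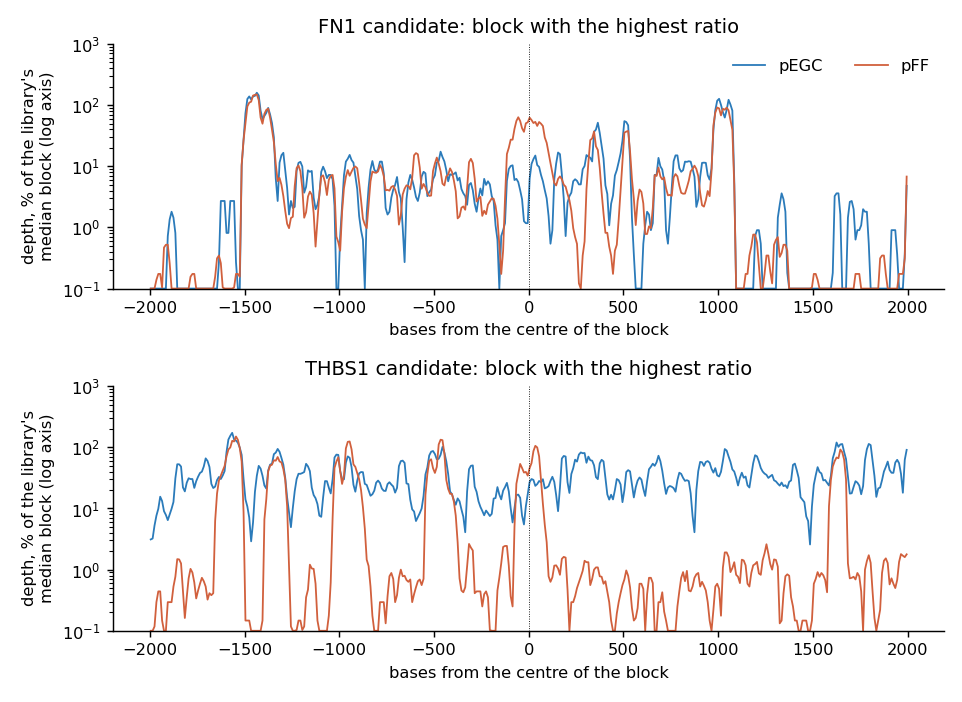
Read depth in each library as a percentage of that library's median block, on a log axis, against distance in bases from the centre of the block with the highest ratio in the FN1 candidate (top) and the THBS1 candidate (bottom). In the FN1 candidate pFF rises to a plateau over the block (mean 40.4%) where pEGC stays near its surroundings (6.21% against 5.10%), and in the THBS1 candidate pEGC stays high between blocks where pFF drops.

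Blocks of the THBS1 candidate had a median ratio of 9.22 (quartiles 7.99 to 14.3, range 5.68 to 26.0), and none was lower in pFF. Here too the block rule partly sets the direction. The widest block, 1984 bases from 138128054 on, had 12724 pEGC and 83675 pFF reads, a ratio of 8.39. The lowest ratio, 5.68, belonged to a block of 82 bases from 138140740 on, with 211 and 940 reads. In this locus 4 blocks departed, all toward pFF, the direction that the block rule favours. The highest was a block of 128 bases from 138139080 on, with 68 and 1384 reads and a ratio of 26.0 (20.4 to 33.6). In pEGC it stood at 19.4% of the median block, below its flanks outside blocks at 30.5%, and in pFF at 54.1% against 3.13%. The block nearest the upper limit, 131 bases from 138145105 on, had 136 and 1996 reads, a ratio of 18.7 (15.7 to 22.4). In it 1 position held 22.2% of the pFF reads, and 17.7% of them were on the forward strand. The block with most pooled reads per base, 114 bases from 138134826 on, had 719 and 9603 reads, a ratio of 17.0 (15.8 to 18.4). In pEGC alone, the block of 88 bases from 138127942 on had more reads per base, 9.42 against 6.31. A block of 218 bases from 138136554 on had 902 and 11730 reads, a ratio of 16.6 (15.5 to 17.8). There 1 position held 14.3% of the pFF reads, and 14.8% of them were on the forward strand. With each position counted once, 1 of these 4 departed.

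In the FBN1 candidate, 45 of the 55 blocks with at least 100 reads had a pEGC read, and their ratios had a median of 254 (quartiles 171 to 374, range 55.9 to 869). The other 10 had none and give no measured ratio. With 3 reads in place of 0 their values lay between 58.3 and 297, and over all 55 with these values the median was 214. The widest, 222 bases from 128705759 on, had 3 pEGC and 408 pFF reads, a ratio of 173. The block with most pooled reads per base, 123 bases from 128744521 on, had 4 and 1600 reads, a ratio of 510. The highest measured ratio, 869 (155 to 34360), came from 1 pEGC and 681 pFF reads in 165 bases from 128729410 on. It need not be the maximum, since a block of 131 bases from 128658512 on had 0 pEGC and 698 pFF reads. The ratio of that block was 297 with 3 reads in place of 0, and the lower limit of its interval was 241. The only block that departed was the lowest of the 55, 120 bases from 128681318 on, with 7 and 307 reads and a ratio of 55.9 (26.8 to 140) against 268 for the rest. Among all 75 blocks 29 had no pEGC read, so differences between single blocks were mostly not detectable at this depth.

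**Figure D5:**
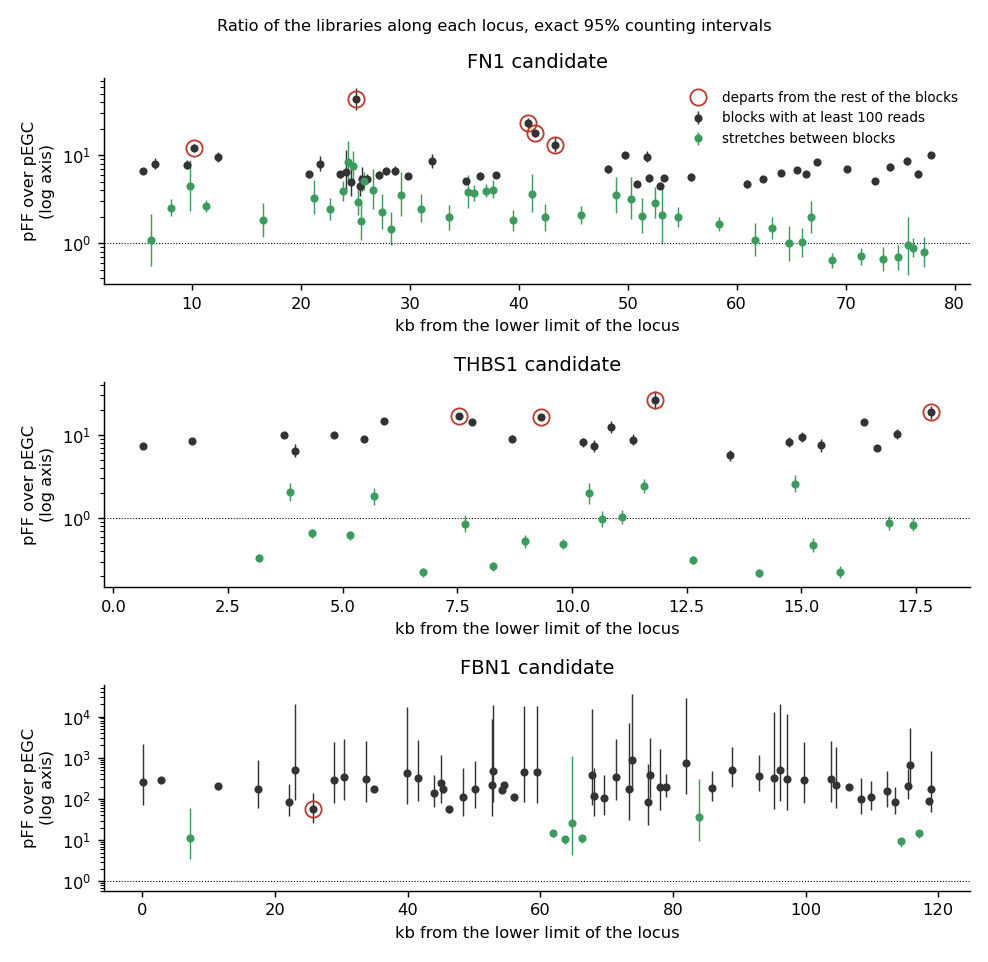
Ratio of pFF over pEGC on a log axis along each locus, for blocks with at least 100 reads (dark) and for stretches between blocks of at least 100 bases and 20 reads (green), with exact 95% counting intervals, 3 reads in place of 0, and rings on blocks that depart from the rest. Blocks, drawn from pooled depth in which pFF gave most reads, lie above 1 in all 3 loci. The green points lie mostly below 1 in the THBS1 candidate (15 of 21) and mostly above 1 in the FN1 candidate (38 of 46).

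Among 3366 regions of the genome with at least 1000 reads, a ratio as high as that of the FN1 candidate was found in 212 (6.30%), of the THBS1 candidate in 217 (6.45%) and of the FBN1 candidate in 34 (1.01%). The regions nearest in log2 ratio over the 2 libraries were picked by that measure alone. For the FN1 candidate they were 46252098 to 46254955 on chromosome 13, with 174 pEGC and 921 pFF reads and a ratio of 6.75, and 5471340 to 5472402 on chromosome 2, with 811 and 4235 reads and a ratio of 6.66. For the THBS1 candidate they were 26740334 to 26743461 on chromosome 2 (339 and 1650 reads, 6.21-fold) and 88432705 to 88436969 on chromosome 1 (366 and 1771 reads, 6.17-fold). For the FBN1 candidate they were 107143977 to 107145203 on chromosome 7 (6 and 1161 reads, 247-fold) and 88073241 to 88081132 on chromosome 15 (214 and 40276 reads, 240-fold).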

How the data were processed

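The authors deposited read positions, with 1 aligned read per line (chromosome, start, end, strand) and no header. Per the labels' protocols, RNA went through 2 rounds of poly(A) selection, DNase, hydrolysis and cDNA synthesis from random hexamers, with no step that keeps the strand. Aligner, build and filters: not given in the sources used here. The equal number of lines in both files is as deposited.

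A read belonged to a locus if its start lay within the limits. Positions are written with the first base counted as 1 and belong to the files' unnamed build. Regions joined pooled reads with starts within 200 bases, with at least 20 reads. Blocks were stretches of at least 34 bases with pooled depth of at least 10% of the 95th percentile of the locus, with gaps of up to 20 bases joined. A count of 0 was set to 3 reads in ratios. No genes were matched by position, so the lists of matrix, receptor and cell type marker genes were not evaluated. Blocks named are the widest, the deepest, those of highest and lowest ratio, and up to 5 that depart from the rest. For each locus 2 like regions are named. The stretches between blocks, the wide regions, the parts of equal length, the stretches of at least 400 bases and the regions around the FBN1 candidate were chosen after their values were seen. The loci, lists and measures were chosen with earlier results of these data known. Scripts ran in Python 3.11 with numpy 2.4.6, scipy 1.17.1, pandas 2.3.3 and matplotlib 3.10.9 and were tested on simulated data. Alternatives were other totals, strands, limits, block depths and thresholds, and each position counted once.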

Additional observations from a re-analysis of the deposited data

How the results depend on the processing

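With 1 library per group no replicate could be left out, and no paired analysis was possible because each group has 1 sample. All 3 loci were higher in pFF under every alternative run. For the FN1, THBS1 and FBN1 candidates in this order, the ratio of pFF over pEGC was 5.27, 4.88 and 192 with all reads in the totals, 8.51, 7.87 and 311 when scaled by the trimmed mean of M-values, 8.65, 8.0 and 316 with a median of ratios, and 1.89, 1.20 and 54.1 with each position and strand counted once. It was 7.30 and 9.76 in blocks alone, 6.93 and 6.0 on strand F, 6.54 and 6.44 on strand R, and 6.59 and 5.52 with limits moved in, for the FN1 and THBS1 candidates. With limits moved out by 10 kb the FBN1 candidate gave 10.4, because the neighbouring stretch with pEGC reads then enters.

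Blocks drawn from pEGC depth alone numbered 77 in the FN1 and 66 in the THBS1 candidate, and at 5% of the depth the FBN1 candidate had 177. Departing blocks fell from 5 to 3 (FN1), 4 to 1 (THBS1) and 1 to 0 (FBN1) at 2-fold, and to 1, 1 and 0 with each position counted once.

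The share of reads between blocks, at 5% and 20% of the depth, with blocks from pEGC alone and with the 50 bases next to blocks left out, was 9.18%, 13.0%, 9.15% and 9.38% for FN1 in pEGC and 2.16%, 4.94%, 3.79% and 2.54% in pFF. For THBS1 it was 30.4%, 43.4%, 6.98% and 32.2% in pEGC and 1.52%, 8.51%, 1.57% and 1.07% in pFF. For FBN1 it was 1.34% and 7.38% in pEGC at 5% and 20% and 0 with blocks from pEGC alone, and 0.994%, 3.31%, 46.7% and 1.87% in pFF. The level between blocks of the THBS1 candidate, higher in pEGC by 2.05-fold, was higher in pFF by 1.22-fold at 20% and by 1.40-fold with blocks from pEGC alone. The pEGC-only blocks for these shares and levels, the 50 bases left out, and the FBN1 regions below the limit were chosen after seeing the data. Of the regions with enough reads for a call, 7.41% to 10.9% were higher in pFF in the alternatives run, against 8.82%.

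Depth limits the FBN1 candidate most, with 149 pEGC reads. The cause of these shifts was not tested beyond what is stated.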
